A study of Mus musculus with 10 samples.

Results

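The Igkv13 family of the mouse immunoglobulin kappa locus (Igk) was followed through its members annotated as functional, Igkv13-84 (IGKV13-84 in the table) and Igkv13-85 (IGKV13-85). Members were the lines of the deposited repertoire table whose V call, with the allele removed, was either name. Of these 2 segments, 1 was present: Igkv13-84 held 451 of 49079 lines and 1151 of 161780 counts (0.711%), as 1 of 114 V segments. The table had 0 lines called Igkv13-85, which therefore has no values of its own here. Each value below is a value of the lines called Igkv13-84. A comparison between the members was not possible.

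A kappa light chain gene is assembled in pre-B cells by joining a V segment to a J segment. The RAG recombinase cuts beside both segments, the ends are trimmed, and their ligation forms the CDR3, a loop of the light chain that touches antigen. A joint can be replaced by a later joint of a V segment lying outside it to a J segment farther downstream, so J1 is the first and J5 the last J segment in reach.

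The 10 samples were small pre-B cells sorted from bone marrow of C57Bl6 mice aged 6 to 12 weeks, 5 labelled WT and 5 labelled rsCBE. The design text writes a delta before rsCBE, the labels do not spell the name out, and they do not say whether each sample was a separate animal. If replicates share an animal, p-values measure only the spread between these samples. Replicates 1 and 2 of each genotype were given as 1 library each (batch 1 below), and replicates 3 to 5 as 2 parts that were added (batch 2); the labels name no batch. Samples held 3109 to 24083 counts, of which 10 to 234 fell on Igkv13-84. WT replicate 4 stood apart with 10 counts on Igkv13-84, so the comparisons of Igkv13-84 are also given without that sample. The table holds Igk joints only, so the labelled cell type could not be checked against markers.

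Igkv13-84 lies at chr6:68939602-68940067 of GRCm38, on the forward strand, with exon 1 at 68939602 to 68939650 and exon 2 at 68939770 to 68940067. It ends 1782 kb before J1 and has the orientation of the J segments, so it joins by deletion of the DNA between them. Igkv13-85 lies at chr6:68930269-68930734 on the reverse strand, on the side away from J1 and with 8867 bp between the genes, and would join by inversion. GENCODE M21 annotates 18 Igkv13 genes, of which these 2 are functional and 16 are pseudogenes. The transcripts of Igkv13-84 and Igkv13-85 are 347 bases each and differ at 13 of them (96.3% identity). The last difference is at base 154, so the final 193 bases are identical, including the 23 bases that can enter the CDR3. A CDR3 therefore cannot tell the pair apart, and their assignment rests on the part of the segment before base 155. A read of 151 bases that holds the CDR3 does not reach back to base 154. Whether the other read of a pair did was not checked, so lines called Igkv13-84 could include joints of Igkv13-85. The 70 bases from 96 to 165 of each transcript hold 6 of the differences, shown in capitals because they are what separates the pair. The 3′ end, the same in both, is shown with its CDR3 bases in capitals, since all joints below start from it.
Igkv13-84, bases 96 to 165 (chr6:68939816-68939885): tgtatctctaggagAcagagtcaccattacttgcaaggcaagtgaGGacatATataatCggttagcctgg
Igkv13-85, bases 96 to 165 (chr6:68930451-68930520, reverse strand): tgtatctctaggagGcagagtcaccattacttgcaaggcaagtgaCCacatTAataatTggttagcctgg
3′ end of Igkv13-84 (chr6:68940008-68940067): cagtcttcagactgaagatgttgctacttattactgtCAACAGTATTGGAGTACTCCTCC

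Igkv13-84 was a segment of moderate use, and its share did not differ detectably between the genotypes. In WT replicates 1 to 5 it took 1.03, 0.954, 0.536, 0.322 and 0.371% of counts. In rsCBE replicates 1 to 5 it took 0.851, 0.695, 0.498, 0.646 and 0.386%. The 4 samples of batch 1 were the 4 highest, and the genotypes overlapped. The means were 0.642% ± 0.329 in WT and 0.615% ± 0.180 in rsCBE (n = 5 per genotype, SD), or -0.0265 percentage points apart (two-sided exact permutation p 0.881). Without WT replicate 4 they were -0.107 percentage points apart (exact permutation p 0.524). Over 98 V segments tested with edgeR's quasi-likelihood method, the log2 fold change of the share was -0.09 ± 0.35 (SE, adjusted p 0.992), and -0.24 without WT replicate 4 (adjusted p 0.979 by edgeR). That test called 0% of the V segments, 0 of 98, with 7 at an unadjusted p under 0.05; DESeq2 also called 0, with 8 at an unadjusted p under 0.05. With batch added to the model, edgeR called 2 of 98 (2.04%), and Igkv13-84 had a log2 fold change of -0.03 (adjusted p 0.949 by edgeR).

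The share of Igkv13-84 differed between the batches, as did that of most V segments. Its share was 0.882% ± 0.144 (SD, n = 4) in batch 1 and 0.460% ± 0.122 (SD, n = 6) in batch 2. With genotype in the model, the log2 fold change of batch 2 over batch 1 was -0.89 ± 0.22 (SE, adjusted p 0.00234 by edgeR), among 26 of 98 segments that were lower in batch 2 (26.5%). Another 30 were higher there, so that 56 of 98 passed the test between batches. Within batch 1 the genotype means were 0.991% in WT and 0.773% in rsCBE, with both rsCBE samples below both WT samples. Within batch 2 they were 0.409 and 0.510%, of the opposite order and overlapping, and 0.0569 percentage points apart without WT replicate 4. The exact permutation p was 0.333 and 0.4, and 2 samples against 2 cannot give less than 0.333.

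**Figure D1:**
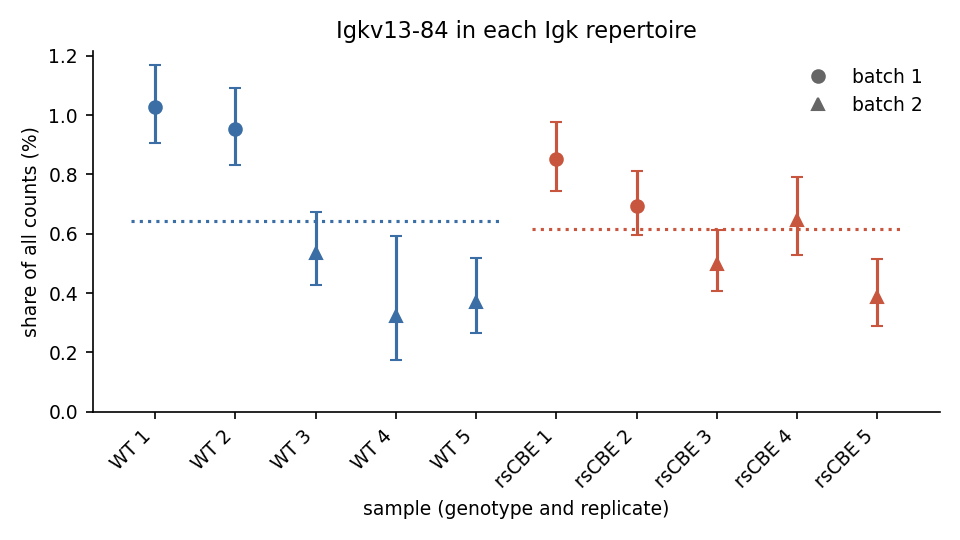
Share of all Igk counts on Igkv13-84 (y axis, %) in each sample (x axis), with Wilson 95% intervals as bars; circles are batch 1, triangles batch 2, dotted lines the genotype means. The 4 batch 1 samples, from 0.695 to 1.03%, lie above the 6 batch 2 samples, from 0.322 to 0.646%, in both genotypes.

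The segments numbered 80 to 89, which lie around Igkv13-84, did not differ detectably between the genotypes. Of 8 such neighbours, 6 were tested and 0 passed. The log2 fold change was negative for 5 of the 6, from -0.78 to -0.04, as it was for Igkv13-84, and positive for Igkv4-86. The median over all 98 segments tested was itself negative, at -0.045. The 2 not tested, the pseudogenes Igkv13-82 and Igkv4-83, held 16 and 11 counts in all samples together. The share of Igkv4-80 was 0.697% ± 0.317 for WT and 0.404% ± 0.0990 for rsCBE (n = 5 per genotype, SD; log2 fold change -0.78 ± 0.33 SE, adjusted p 0.509 by edgeR). Igkv4-86 took 1.35% ± 0.197 and 1.46% ± 0.202 (n = 5 per genotype, SD; log2 fold change 0.11, adjusted p 0.992 by edgeR). Across the 10 samples, the log2 shares most like those of Igkv13-84 were those of Igkv4-53, with a Pearson correlation of 0.96, Igkv5-43 (0.87), Igkv16-104 (0.86) and Igkv6-13 (0.84). The median over the other 113 segments was 0.04. After the mean of each batch was taken out, the correlations were 0.87, 0.36, 0.57 and 0.72. Igkv4-62, with 65 counts in all, then reached 0.78, above Igkv5-43, Igkv16-104 and Igkv6-13. The segments named were thus chosen with the batch difference left in. The correlations are descriptions over 10 samples, in each of which all segments share the library, its depth and its batch.

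With all samples added, Igkv13-84 was joined to J1 more often than to any other J segment. Its J5 share was below that of the other V segments in all 10 samples, and its J1 share was above theirs in 9. The J1 call ended in 9 of the 10 cases of leaving out 1 sample, and in 4 of 7 other alternatives. Of its 1151 counts, 625 used J1 (54.3%), 254 used J2 (22.1%), 107 used J4 (9.30%) and 165 used J5 (14.3%). J3, which is rarely used, held 0 counts. The J1 share was 59.4, 60.3, 48.6, 0 and 82.4% in WT replicates 1 to 5 and 49.3, 49.4, 48.4, 47.8 and 66.7% in rsCBE replicates 1 to 5. Only WT replicate 4 had no J1 joint, 0 of 10 counts, which allows a share of up to 30%. In the other 9 samples J1 was the most used J segment. The J5 share was 10.3, 9.80, 23.0, 30 and 0% in WT and 16.1, 19.1, 11.0, 22.8 and 13.3% in rsCBE. WT replicate 5 had 0 of 34 counts on J5, which allows up to 8.82%.

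All other V segments of the same samples were joined to J1 in 21.3 to 33.7% of their counts and to J5 in 24 to 40.5%. The comparison within samples was chosen after these values were seen. The J1 share of Igkv13-84 exceeded that of all other segments in 9 of 10 samples, by 23.6 percentage points on average. The exact two-sided sign-flip permutation p was 0.0117 and the p adjusted over 6 measures 0.0352. Without WT replicate 4 it was 29.3 percentage points, higher in all 9 samples (adjusted exact permutation p 0.0117). Leaving out any of the other 9 samples raised the adjusted exact permutation p to between 0.0586 and 0.0703, with a difference of 20.7 to 24.5 percentage points. Counting each clonotype once also ended the call, at 18.7 percentage points (adjusted exact permutation p 0.0527).

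The J5 share of Igkv13-84 was below that of the other segments in 10 of 10 samples, by 18.5 percentage points on average. The exact sign-flip permutation p of 0.00195 was the smallest that 10 samples allow (adjusted p 0.0117). The difference was -18.5 percentage points in batch 1 and -18.5 in batch 2. Without WT replicate 4 it was -19.99 (adjusted exact permutation p 0.0117). J2 did not differ detectably, at -4.14 percentage points, or -2.08 without WT replicate 4 (adjusted exact permutation p 0.348 for both). J4 differed by -0.893 percentage points with all samples (adjusted exact permutation p 0.980) and by -7.16 without WT replicate 4, in which 7 of 10 counts used J4 (adjusted exact permutation p 0.0156).

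**Figure D2:**
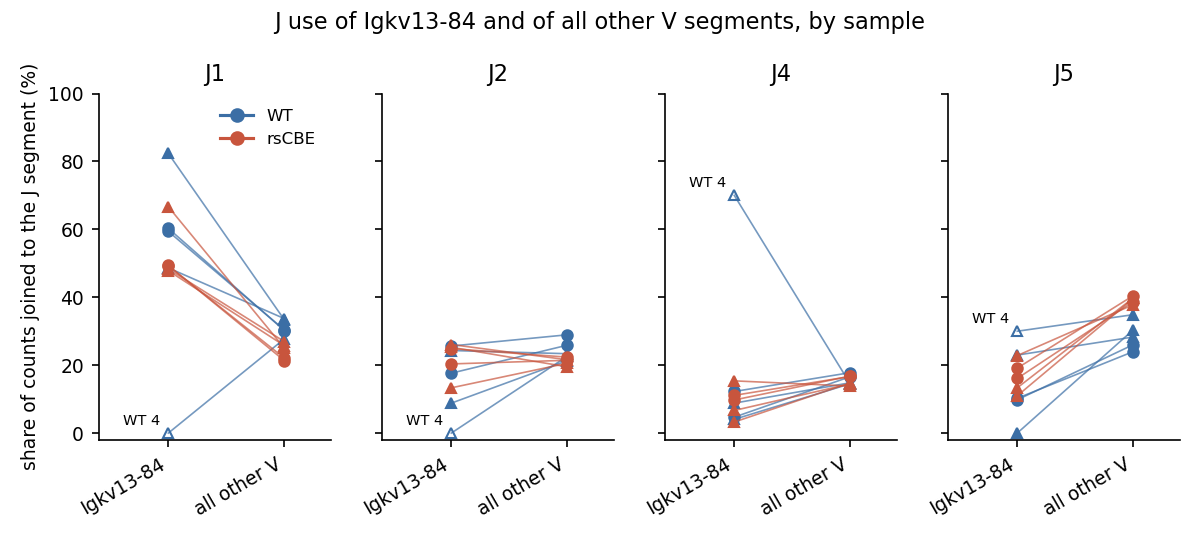
Share of counts joined to J1, J2, J4 and J5 (y axis, %) for Igkv13-84 and for all other V segments, with 1 line per sample; circles are batch 1, triangles batch 2, and the open triangle is WT replicate 4. The J5 lines rise in all 10 samples, and the J1 lines fall in all samples except WT replicate 4.

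Among the 103 V segments with at least 50 counts, Igkv13-84 ranked number 6 by J1 share and number 5 from the lowest by J5 share, with all samples added. With each sample weighted alike it ranked number 9 and number 6. Segments joined by deletion, as Igkv13-84 is, had a median J1 share of 31.0% (39 segments) and those joined by inversion 17.7% (62 segments). The ranges overlapped, from 1.48 to 61.0% and from 0 to 60.7%. The neighbours with at least 50 counts had unlike J use, and Igkv13-82 and Igkv4-83 had too few counts to be ranked. Igkv4-80 and Igkv4-81, on the J side of Igkv13-84 and joined by inversion, used J1 in 57.3 and 49.8% of counts. Igkv4-86, on its far side and also joined by inversion, used J1 in 10.5% and J5 in 53.1%. Igkv1-88 and Igkv12-89 lay between, at 41.2 and 43.8% J1, and Igkv14-87-2, whose orientation was not matched, used J1 in 28.1% and J5 in 40.7%. These shares add counts over samples and describe the segments without a test.

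**Figure D3:**
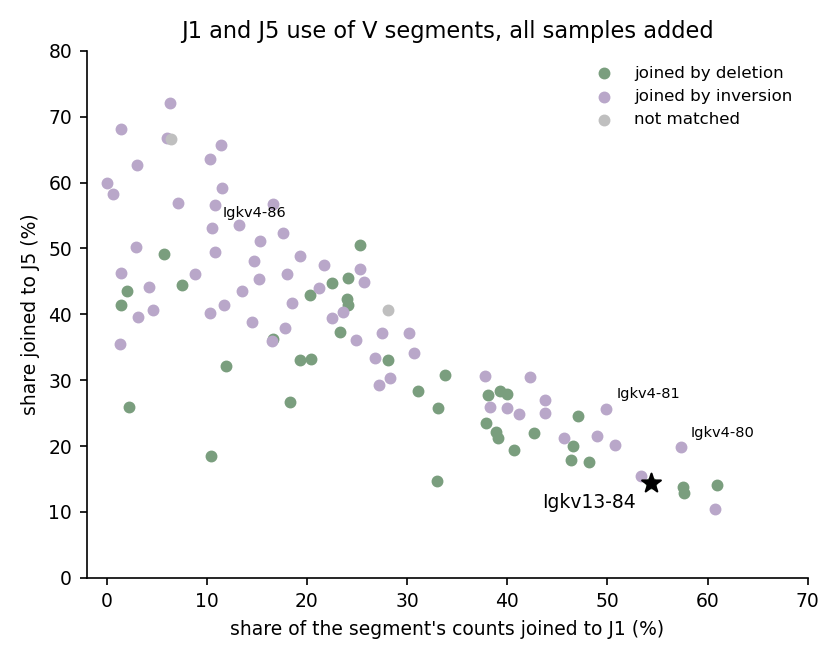
J1 share (x axis, %) against J5 share (y axis, %) of the 103 V segments with at least 50 counts, all samples added and colored by orientation to the J segments. Igkv13-84 (star, 54.3% J1 and 14.3% J5) lies at the J1 end with segments of both orientations, while its neighbour Igkv4-86 lies at the J5 end.

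In all other V segments the genotypes did not overlap: J1 took 27.8 to 33.7% of counts in WT and 21.3 to 26.9% in rsCBE, and J5 24 to 34.9% and 37.8 to 40.5%. J use of Igkv13-84 was therefore compared between the genotypes. None of the 4 J segments passed a test. The J1 share was 50.1% ± 30.6 in WT and 52.3% ± 8.06 in rsCBE (n = 5 per genotype, SD), 2.16 percentage points higher (exact permutation p 0.905), with the same p after adjustment over 4 J segments. The WT spread included the 0% of replicate 4, without which the difference was -10.4 percentage points (adjusted exact permutation p 0.540). J5 was 14.6% ± 11.9 in WT and 16.5% ± 4.68 in rsCBE (n = 5 per genotype, SD; adjusted exact permutation p 0.905). J2 was 15.3% ± 10.8 and 21.99% ± 5.33, and J4 19.97% ± 28.2 and 9.24% ± 4.58 (n = 5 per genotype, SD; adjusted exact permutation p 0.905 for both). The WT mean of J4 was carried by the 70% of replicate 4. Without that sample the J4 difference turned from -10.7 to 1.78 percentage points, J2 went from 6.70 to 2.88 and J5 from 1.87 to 5.72 (adjusted exact permutation p 0.540 for each). Without WT replicate 5 the J1 difference was instead 10.2 percentage points and that of J5 turned to -1.78 (adjusted exact permutation p 0.730 for both). With the counts of a genotype added, J1 was 58.6% of 556 counts in WT and 50.3% of 595 in rsCBE, and J5 was 11.5 and 17.0%.

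The samples with the most Igkv13-84 counts, the 4 of batch 1, gave the narrowest values. There J1 was 59.4 and 60.3% in WT against 49.3 and 49.4% in rsCBE, and J5 was 10.3 and 9.80% against 16.1 and 19.1%. The genotypes did not overlap for either segment, and the exact permutation p of 0.333 is the smallest that 2 against 2 can give. Single values rest on 162 to 234 counts. The Wilson 95% interval of J1 ran from 53.0 to 65.5% in WT replicate 1 and from 42.5 to 56.1% in rsCBE replicate 1. In batch 2, with 10 to 92 counts per sample, the genotypes overlapped and the sign of both differences turned on single WT samples. With all samples, J1 was 43.7% in WT and 54.3% in rsCBE, 10.6 percentage points higher, and J5 differed by -1.94. Without WT replicate 4, J1 differed by -11.2 percentage points and J5 by 4.23 (adjusted exact permutation p 0.9 for both). Those signs rest in turn on WT replicate 5, with 34 counts: WT replicate 3, at 48.6% J1 and 23.0% J5, lay on the other side of the rsCBE means of 54.3 and 15.7%. Batch 2 thus gave no direction for J1 or J5.

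The pairs of Igkv13-84 with J1, J2, J4 and J5 all passed the filter on low counts, and none was called among 270 V-J pairs (0%, 0 pairs, 25 with an unadjusted p under 0.05 by edgeR; DESeq2 called 2, neither of this segment). Their log2 fold changes by edgeR were -0.23 ± 0.51 for J1, 0.10 ± 0.63 for J2, -0.41 ± 0.68 for J4 and 0.31 ± 0.66 for J5 (SE, adjusted p 0.907 to 0.966). Each SE exceeded its fold change. Without WT replicate 4 they were -0.49 for J1, -0.11 for J2, 0.034 for J4 and 0.34 for J5 (adjusted p 0.521 to 0.980 by edgeR), so J2 and J4 turned sign. With batch added to the model, edgeR called 7 of the 270 pairs (2.59%), and the 4 pairs of Igkv13-84 had adjusted p from 0.826 to 0.922.

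Whether the J5 shift between genotypes was of another size in Igkv13-84 than in the rest was tested on the difference in J5 share between the segment and all other V segments of a sample. It was -14.1 ± 10.4 percentage points in WT and -22.8 ± 5.27 in rsCBE (n = 5 per genotype, SD), a change of -8.70 (exact permutation p 0.143). Within batches the change was -6.99 and -9.84, and without WT replicate 4 it was -6.39 (exact permutation p 0.278). Without WT replicate 5, in which no joint used J5, it was -12.8 (exact permutation p 0.0238). The result thus depended on that sample of 34 counts.

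The share of Igkv13-84 counts in frame and without a stop, which alone can encode a light chain, was 83.8, 68.6, 71.6, 100 and 50% in WT replicates 1 to 5. It was 68.3, 65.4, 57.1, 65.2 and 53.3% in rsCBE replicates 1 to 5. The other 4 WT samples lay above the highest rsCBE sample, while WT replicate 5 was the lowest of all 10. The means were 74.8% ± 18.6 in WT and 61.9% ± 6.33 in rsCBE (n = 5 per genotype, SD), -12.9 percentage points apart, which did not pass (exact permutation p 0.190). Leaving out WT replicate 5 gave -19.1 percentage points (exact permutation p 0.00794). Leaving out WT replicate 4, whose 10 counts were all in frame, gave -6.62 (exact permutation p 0.421). Both of these samples had under 40 counts.

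In the same samples the in-frame share of all other V segments ran from 61.3 to 76.5%. Igkv13-84 minus the rest was 4.18 ± 20.04 percentage points in WT and -3.40 ± 3.58 in rsCBE (n = 5 per genotype, SD), a change of -7.58 (exact permutation p 0.532). Single samples set its size and call: without WT replicate 5 it was -13.8 (exact permutation p 0.0317), and without WT replicate 4 it was 0.0267 (exact permutation p 0.992). Over the 10 samples the segment and the rest differed by 0.388 percentage points (adjusted exact sign-flip permutation p 0.980), and by -3.41 without WT replicate 4 (adjusted exact permutation p 0.267). By J segment, with all samples added, joints were in frame in 73.8% of 625 counts for J1, 67.7% of 254 for J2, 61.7% of 107 for J4 and 60% of 165 for J5. It was lower in rsCBE than in WT for J1 (68.2 against 78.8%), J4 (56.9 against 67.3%) and J5 (48.5% of 101 counts against 78.1% of 64), and higher for J2 (70.1 against 65.0%). These sums weight samples by their counts and were not tested.

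The joints of Igkv13-84 lost few V bases and gained few others. Its CDR3s opened with the first 18 germline bases in 1012 of 1151 counts (87.9%), and in all other V segments together 1 count did. Joints were read where at least 9 germline V bases and 3 germline J bases matched, which held for 92.3% of counts. Of those 1062 counts, 42.1% kept 20 of the 23 V bases, 16.7% kept 18, 15.3% kept 22 and 7.72% kept all 23. The J end was complete in 46.8%. In 83.1% no base lay between the V and J matches, and in 15.5% the matches overlapped, so that the overlapping bases could come from either end. In 13.8% 1 to 3 bases lay between, and in 3.01% more than 3, which can include a mismatch inside the V part.

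The genotypes did not differ detectably at the V end. The mean number of V bases matched over all counts was 18.8 ± 0.652 in WT and 18.9 ± 0.223 in rsCBE (n = 5 per genotype, SD; exact permutation p 0.770). The difference of 0.0960 bases turned to -0.127 without WT replicate 4 (exact permutation p 0.611). In joints that were read, 45.5% of WT and 38.9% of rsCBE counts kept 20 bases, and 3.33 and 7.07% kept 21. No base lay between V and J in 81.8% of WT and 84.4% of rsCBE counts, and the matches overlapped in 11.4 and 19.4%. These shares of joints read add counts over the samples of a genotype and were not tested.

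**Figure D4:**
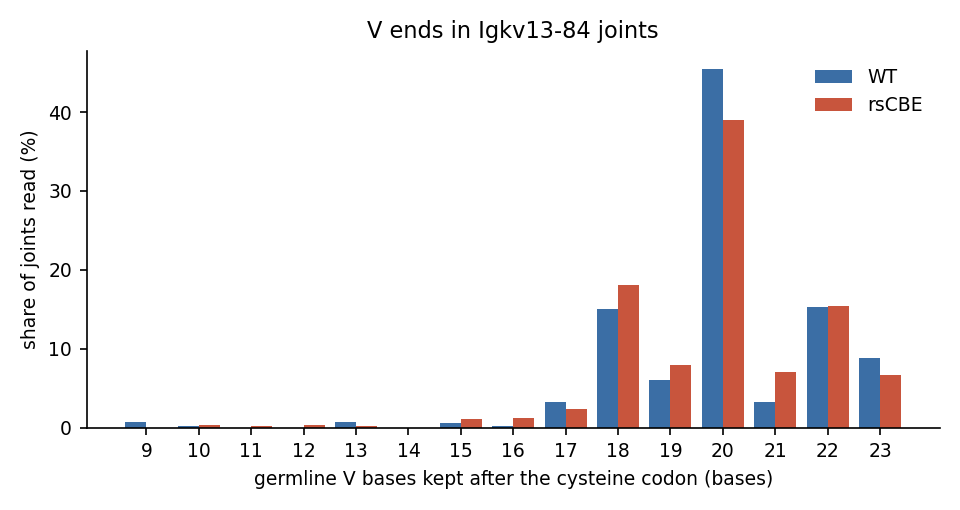
Germline V bases kept after the cysteine codon (x axis, bases, of 23) as a share of joints read (y axis, %), with the samples of a genotype added. The highest bar in both genotypes is at 20 bases, 45.5% in WT and 38.9% in rsCBE, with lower peaks at 18 and 22.

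Of the 5 clonotypes found in at least 8 samples, 3 had J1 with different V ends, and the other 2 joined J2 or J4 to the V end of the first. A clonotype is a combination of V, J and CDR3 nucleotides. In 9 samples each were 4 clonotypes, and the 3 of these with the most counts are shown first, 2 with J1 and 1 with J2. The J4 joint, also in 9 samples, and a J5 joint were added after their values were seen, because they share the 20 V bases of the first. Capitals mark the J part.
J1 joint, 20 V bases: caacagtattggagtactccGTGGACG
J1 joint, 22 V bases: caacagtattggagtactcctcGGACG
J2 joint, 20 V bases: caacagtattggagtactccGTACACG
J4 joint, 20 V bases: caacagtattggagtactccATTCACG
J5 joint, 20 V bases: caacagtattggagtactccGCTCACG
All 5 are 27 bases long and in frame, with no base between the V and J parts.

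The J1 joint with 20 V bases was the most abundant, with 168 counts (14.6% of the segment) in 9 of 10 samples. It held 30, 36, 17, 0 and 5 counts in WT replicates 1 to 5 and 22, 22, 7, 17 and 12 in rsCBE replicates 1 to 5. It was thus missing only from WT replicate 4, the sample with 10 counts. The J1 joint with 22 V bases had 103 counts and the J2 joint 87, each in 9 samples. The J4 joint had 49 counts in 9 samples, of which 6 were in WT replicate 4, more than any other clonotype there. The J5 joint had 49 counts in 7 samples, 24 in WT and 25 in rsCBE.

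Igkv13-84 had 229 distinct clonotypes over the 10 samples, and 169 of them were seen in 1 sample only. The 5 present in at least 8 samples held 38.7% of its counts, against 57.8% for clonotypes that widespread in all other V segments. A segment with few counts has fewer chances to be seen in many samples, and this was not corrected for. Of the 5, 4 were in frame. The exception, with J1 and 26 bases, had 11 counts in WT and 28 in rsCBE. The largest clonotype took 9.89 to 26.7% of the segment's counts in the samples other than WT replicate 4, where it took 60% (6 of 10).

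CDR3 length peaked at 27 bases, which held 51.3% of the counts and 73.7% of those in frame; lengths of 24 and 30 bases held 20.7 and 4.26% of those in frame. In all other V segments these lengths held 77.0, 13.7 and 6.10%. The mean length in frame was 26.7 ± 0.714 bases in WT and 26.5 ± 0.141 in rsCBE (n = 5 per genotype, SD; exact permutation p 0.683). The difference of -0.218 bases turned to 0.0748 without WT replicate 4 (exact permutation p 0.635). Igkv13-84 minus the rest was -0.0869 bases over 10 samples (adjusted exact sign-flip permutation p 0.955). Without WT replicate 4 it was -0.239 bases (adjusted exact permutation p 0.0352). Among lengths out of frame, 25 bases held 6.47% of WT and 13.4% of rsCBE counts, and 26 bases 8.99 and 8.91%. These shares out of frame add counts over the samples of a genotype and were not tested.

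**Figure D5:**
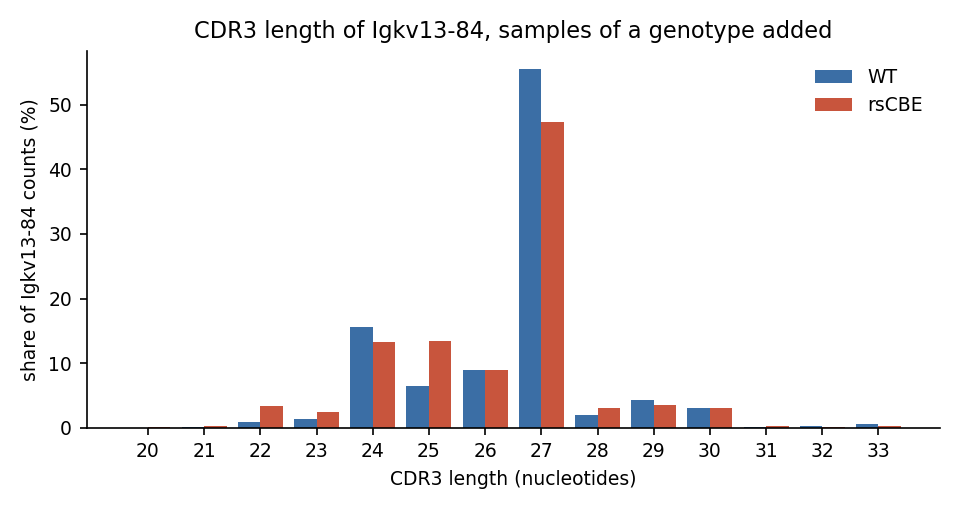
CDR3 length (x axis, nucleotides) as a share of Igkv13-84 counts (y axis, %), with the samples of a genotype added; lengths under 20 are left out. Both genotypes peak at 27 bases, and rsCBE has the higher bar at 25 bases, 13.4 against 6.47%.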

How the data were processed

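The authors deposited 1 table of whole-number counts, not normalized; each line gives a V call per read, a J call and a CDR3, per the file headers. Libraries were Igk amplicons read as 151-bp pairs on a MiSeq, per the labels' protocols, and mm10 is named in the submitters' processing notes. The V caller, its filters and whether a count is a molecule are not given in the sources used here, so Wilson 95% intervals and limits at 0 counts (3 counts of the total) leave out all but counting error. The V calls of read 1 and read 2 were equal on 100% of lines. Coordinates and sequences are from GENCODE M21 (GRCm38, the build named mm10), which matched 112 of 114 V segments.

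Parts of a replicate were added and 49 duplicate lines merged. V segments and V-J pairs were tested with edgeR 4.0.16 in R 4.3.3 (quasi-likelihood test, total counts as library size, filterByExpr, Benjamini-Hochberg adjustment, threshold 0.05), with SE taken as the fold change over the root of F; DESeq2 1.42.0 was an alternative. Shares and lengths were compared by two-sided exact permutation over samples, with 0.00794 the smallest p for 5 against 5. Segments were ranked by J use from 50 counts; 0.5 was added to counts before log2 shares were correlated. No 2 replicates of a genotype agreed within sampling noise (chi-square of V segment counts at least 2.22 times its degrees of freedom in 20 pairs). Methods were tested on simulated data. Replicate numbers were not taken to pair the samples. Named segments were the members, neighbours numbered 80 to 89, and the 4 with the most similar shares; named clonotypes were the 3 in most samples, ties by total counts, and 3 others were described after their values were seen. The members and lists were chosen with earlier results of these data known. The planned share of Igkv13-84 within the family and the comparison of members within samples could not be run with 1 member present.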

Additional observations from a re-analysis of the deposited data

Results flagged for a closer look

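Dixon's gap test was applied to 20 sets of 5 values, and in 2 of them the most extreme value lay farther from the next than 0.71 of the range. Chance marks about 1 in 20 sets, which is 1 here. In rsCBE replicate 5, 66.7% of Igkv13-84 counts used J1, while the remaining rsCBE samples had 47.8 to 49.4%. The value comes from 30 of 45 counts, with a Wilson 95% interval of 52.1 to 78.6%. In WT replicate 4, 70% of Igkv13-84 counts used J4, while the remaining WT samples had 4.05 to 12.3%. The value comes from 7 of 10 counts, and 6 of these 7 belong to 1 clonotype.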

How the results depend on the processing

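Over the 23 results recomputed, 147 of 182 alternatives other than leaving out a replicate kept the direction and the side of the threshold. Counting each clonotype once gave a log2 fold change of Igkv13-84 of 0.063, a share difference of 0.132 percentage points, genotype differences of -1.13 for J1 and -1.98 for J5, and 18.7 for J1 within samples (adjusted exact permutation p 0.0527). Part a alone gave -0.964 for J5 and -0.188 V bases kept. Part b alone gave a J2 pair log2 fold change of -0.14 and a share difference of 0.00939. Joints matching at least 9 V bases gave -0.0389 V bases kept. Batch 1 alone gave -10.5 for J1, 1.96 for J4 and 0.0330 bases of CDR3 length between genotypes, and 28.6 for J1 and -18.5 for J5 within samples. Batch 2 alone gave 0.101 for the share, -1.94 for J5 and -0.0170 V bases kept between genotypes, and 20.2 for J1, 3.53 for J4, -18.5 for J5 and 0.00426 bases of length within samples. Batch 2 without WT replicate 4, chosen after the data were seen, gave between genotypes 0.0569 for the share, -11.2 for J1, 1.999 for J4, 4.23 for J5, 0.109 bases of length, 4.06 for in-frame minus the rest and -0.512 V bases kept. Within samples it gave 29.8 for J1, -6.88 for J4, -21.2 for J5 and -6.75 for the in-frame share, so in batch 2 leaving out that sample turned the signs of J1, J4, J5, length and in-frame minus the rest between genotypes, and of J4, the in-frame share and length within samples. The 4 samples of batch 1 allow no exact permutation p under 0.125 within samples, and J5 in batch 2 had an exact permutation p of 0.0312 (adjusted 0.188). A batch term gave 2 called V segments and 7 called V-J pairs by edgeR, and DESeq2 called 2 V-J pairs. The cause of these changes was not tested.

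Leaving out 1 replicate at a time kept direction and call in 192 of 230 recomputed values. The log2 fold change ranged from -0.24 to 0.14 for Igkv13-84, from -0.49 to 0.034 for its J1 pair, from -0.13 to 0.57 for J2 and from -0.69 to 0.034 for J4. For its J5 pair it ranged from 0.0051 to 0.50, lowest without WT replicate 5. Between genotypes the share ranged from -0.107 to 0.0699, J1 from -10.4 to 10.2, J2 from 2.88 to 9.29, J4 from -14.7 to 1.78, J5 from -1.78 to 5.72 and the in-frame share from -19.1 to -6.62. Length ranged from -0.371 to 0.0748, V bases kept from -0.127 to 0.296, J5 minus the rest from -12.8 to -6.39 and in-frame minus the rest from -13.8 to 0.0267. Within samples J1 ranged from 20.7 to 29.3, J4 from -7.16 to 0.334, J5 from -20.0 to -17.2, the in-frame share from -3.41 to 2.74 and length from -0.239 to -0.0256.

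Samples with the same number correlated at 0.0965 to 0.774 over 5 pairs, and 2 of 5 WT samples correlated best with their own number, so the numbers were not taken as pairing. With the replicate block edgeR called 1 V segment, and the log2 fold change of Igkv13-84 was -0.04 (adjusted p 0.976 by edgeR). The block changed no call for Igkv13-84. Results within the family across members could not be run, since 1 member had lines. Depth limits most values of batch 2, where Igkv13-84 had 10 to 92 counts per sample.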

Other observations

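The pseudogene Igkv13-82, which the choice of members left out, also had counts. It held 16 counts in 5 samples, 2 and 2 in WT replicates 1 and 2, 1 and 1 in rsCBE replicates 2 and 3, and 10 in rsCBE replicate 4.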
